A study of Mus musculus with 3 samples.

Results

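The genes described here were 40 genes of the dividing cell, 20 of the S phase and 20 of mitosis, out of 32285 genes in the count matrix. They were taken by symbol from a written list and not by a rule on their counts, though earlier results of these data were known. All 40 had UMIs (unique molecular identifiers, 1 for each captured RNA molecule) in the cells. Their levels were compared across the cells of the mouse thymus grown at the air-liquid interface and between a pair of culture types, all wild-type. The study's methods give C57BL/6J for the mice and no strain for the added embryonic fibroblasts. FTOC (fetal thymic organ culture) held intact E13.5 lobes. ORFTOC (organoid reaggregate fetal thymic organ culture) held thymic epithelial cells (TECs) from E16.5 thymi that had first been grown as organoids, mixed with EpCAM-depleted cells of E13.5 thymi and with mouse embryonic fibroblasts (MEFs), so that its epithelial, blood-derived and mesenchymal cells came from separate inputs. Both were kept in the same medium, which contained FGF7, and were taken at day 13. For each culture type 2 cultures were pooled and tagged with 1 hashtag antibody, and both pools went through 1 droplet lane. Each pool is therefore 1 sample, no difference between the pools was tested, and intervals below are exact 95% intervals for counting error only. Clusters, which give the cell classes, were found without cell cycle genes.

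A dividing cell first copies its DNA in the S phase. The MCM complex unwinds the double helix, PCNA holds the polymerases on the template, and ribonucleotide reductase and thymidylate synthase supply the building blocks. In mitosis, cyclin B and CDK1 drive the cell in, the kinetochore and the spindle part the chromosomes, and the anaphase promoting complex ends the phase by marking cyclins for destruction. In the thymus, αβ T cell precursors divide in a burst once a rearranged T cell receptor beta chain is made (β-selection). They leave the cycle as CD4 CD8 double-positive (DP) cells, rearrange the alpha chain and are selected, and some single-positive (SP) cells divide again as they mature. Thymic epithelium renews itself more slowly, with medullary precursors among its dividing cells.

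S phase genes are commonly driven through E2F sites and mitosis genes through CCAAT boxes and the cell cycle homology region (CHR). Promoters of 34 of the 40 members were found in RefSeq on GRCm38.p6, as windows from 250 bases before to 50 bases after the start of the gene, 17 of each list. The CHR letters TTTGAA, read on both strands, lay in 12 of 17 mitosis promoters (70.6%), in 2 of 17 S phase promoters (11.8%) and in 20.2% of the promoters of 27025 genes. CCAAT, also on both strands, lay in 15, in 11 and in 41.1%. An E2F match (TTTGGCGC, TTTCCCGC, TTTCGCGC or TTTGCCGC, both strands) lay in 1 of 17 mitosis promoters, in 7 of 17 S phase promoters (41.2%) and in 2.6% of all. All 12 mitosis promoters with the CHR letters also held CCAAT, a pair found in 7.97% of all promoters. Shown are the 150 bases before the start of 2 S phase genes and 2 mitosis genes, on the strand of the gene and 5′ to 3′, with matches in capitals. Mcm6 (chr1:128359706-128359855, minus strand) and Mcm5 (chr8:75109359-75109508, plus strand) code for helicase subunits and show TTTGGCGC or TTTCGCGC on one strand or the other beside CCAAT boxes, 2 matches overlapping in Mcm6. Ube2c (chr2:164769779-164769928, plus strand), an enzyme of the anaphase promoting complex, and Top2a (chr11:99024190-99024339, minus strand), which untangles chromosomes, were the most abundant mitosis members in αβ thymocytes and show CCAAT boxes followed by TTTGAA, here on the other strand as TTCAAA. A match is a string of letters and not a measured binding site.
Mcm6: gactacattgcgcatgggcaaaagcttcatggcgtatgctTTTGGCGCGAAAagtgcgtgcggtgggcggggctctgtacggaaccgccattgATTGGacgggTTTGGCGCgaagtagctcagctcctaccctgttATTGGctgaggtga
Mcm5: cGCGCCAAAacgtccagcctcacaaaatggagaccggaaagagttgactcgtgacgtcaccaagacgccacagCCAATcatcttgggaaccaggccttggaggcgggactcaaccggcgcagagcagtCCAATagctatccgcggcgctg
Ube2c: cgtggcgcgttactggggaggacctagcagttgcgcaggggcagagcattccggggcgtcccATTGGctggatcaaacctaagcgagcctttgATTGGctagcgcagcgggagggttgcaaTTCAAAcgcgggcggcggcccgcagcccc
Top2a: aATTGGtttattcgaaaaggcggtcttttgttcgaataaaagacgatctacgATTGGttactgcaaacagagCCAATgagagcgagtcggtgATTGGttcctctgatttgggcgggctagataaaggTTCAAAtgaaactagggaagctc

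The cells numbered 8392, 4144 in FTOC and 4248 in ORFTOC, with median depths of 4952 and 8053 UMIs. Immune clusters rich in thymocyte markers made up 3672 αβ thymocytes, and the others used here were 1211 innate lymphoid cells, 2181 epithelial cells, 267 mesenchymal cells, 176 γδ T cells and 210 myeloid cells. A further 675 cells lay in 2 immune clusters that fitted no lineage. The pools also differed in sex-linked RNA: the Y-linked Eif2s3y had 9 UMIs in all FTOC cells and 1780 in ORFTOC cells, so that embryo sex and culture type cannot be told apart. Barcodes with at most 100 UMIs, which hold free RNA, carried the S phase list at 751 UMIs per 1000000 UMIs of the class (CPM) and the mitosis list at 1173. A class with 5% free RNA would get 37.6 and 58.6 CPM from it.

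The division genes were highest in a minority of the thymocytes, and αβ thymocytes led the lineages in both lists. Summed over its 20 members and both pools, the mitosis list stood at 4029 CPM in αβ thymocytes (3998 to 4059.6), 1511 in γδ T cells, 1173 in innate lymphoid cells (1150.4 to 1195), 606 in mesenchymal cells (586 to 627), 438 in myeloid cells and 393 in epithelial cells (386 to 400.3). The S phase list ran from 2943 CPM in αβ thymocytes to 1374 in innate lymphoid cells, 1224 in γδ T cells, 499.8 in mesenchymal cells, 494 in myeloid cells and 471 in epithelial cells. In the S phase list the interval of myeloid cells (471 to 518) overlapped those of mesenchymal (481 to 519) and epithelial cells (464 to 479), which did not overlap each other. Between the single classes of the plot the mitosis list ranged from 9476 to 87 CPM over both pools. Mitosis list UMIs were 1.37 times the S phase list UMIs in αβ thymocytes, 0.854 times in innate lymphoid cells and 0.834 times in epithelial cells.

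**Figure D1:**
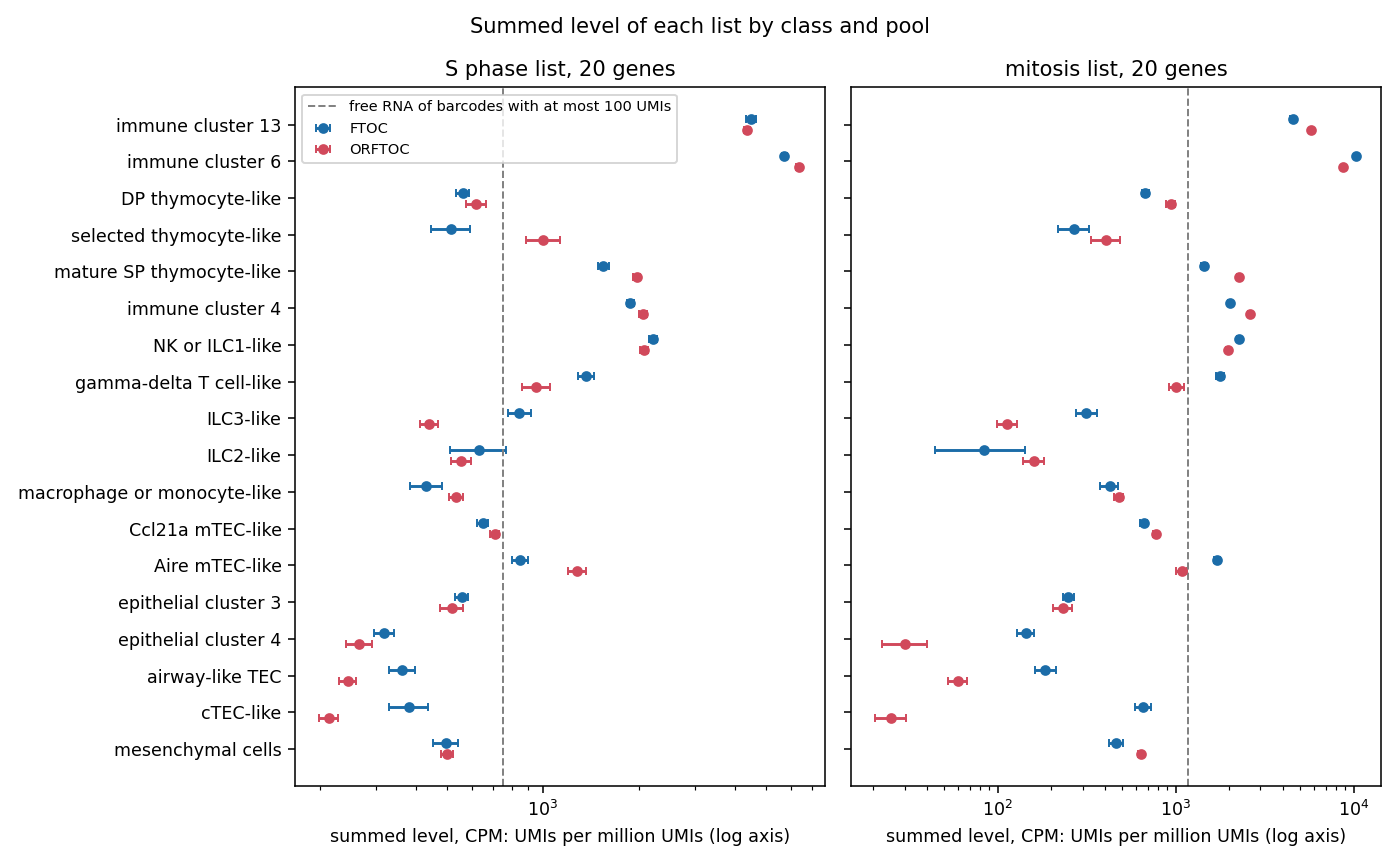
Summed level of the S phase list (left) and the mitosis list (right) in each class, in UMIs per 1000000 UMIs (CPM) on a log axis, for FTOC (blue) and ORFTOC (red); bars are exact 95% Poisson intervals and the dashed line is the level in free RNA. Immune clusters 6 and 13 stand highest in both panels, and the ORFTOC cTEC-like cells are lowest, at 25.1 CPM for mitosis.

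Within the αβ thymocytes, 2 clusters held most of the division RNA. Immune cluster 6 (461 cells) had the mitosis list at 10313 CPM in FTOC and 8694 in ORFTOC, and the S phase list at 5717 and 6354. Its leading genes, Fbxo5, Esco2, Pbk and Ccnf, are themselves cell cycle genes, so that its high level was partly built into the cluster and is given as a description. Immune cluster 13 (164 cells) scored highest for immature CD8 or pre-DP thymocytes, at 0.43 against -0.08 for γδ T cells, and led with Tubb3 and Gzma. It was left unnamed because its leading genes held Gzma, from the natural killer marker list, and no marker of its own class. Its mitosis list stood at 4554 CPM in FTOC and 5759 in ORFTOC. Both clusters carried Ptcra, the pre-receptor alpha chain of early thymocytes, at 111 and 126 CPM, near the 114 of DP thymocyte-like cells. Cd4 stood at 97.8 and 8.24 in clusters 6 and 13, against 553 in DP thymocyte-like cells. The recombinase gene Rag1 stood at 283 and 127, against 1548. Together these clusters held 17.0% of the αβ thymocytes, 76.1% of their S phase UMIs and 80.6% of their mitosis UMIs. They made up 13.0% of the αβ thymocytes of FTOC and 23.3% of those of ORFTOC.

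The other thymocyte classes stood well below these clusters. DP thymocyte-like cells (2184) had the mitosis list at 674 CPM in FTOC (645 to 705) and 939 in ORFTOC (885 to 995). Selected thymocyte-like cells (272), marked by Cd5 and Itm2a, had it at 268 and 407, but single cells carried these levels: without the richest cell of each pool they were 107 and 57.1. In mature SP thymocyte-like cells (591), marked by Ccr7 and Klf2, it was at 1449 in FTOC (1389.8 to 1509) and 2267 in ORFTOC (2215 to 2319.8), a ratio of 1.56. The S phase list stood at 577, 715 and 1829 CPM over both pools in these 3 classes. Selected cells were below DP cells in mitosis in each pool. In the S phase list they were above DP cells in ORFTOC, at 1002 against 617 CPM. In FTOC they were not, at 515 (446 to 591) against 560 (533 to 588). The mature class joined 2 clusters, one of which (73 cells) had cycle genes among its leading genes. Without it, the mitosis list of the mature cells was 611 CPM in FTOC and 1272 in ORFTOC, a ratio of 2.08. The DP class was also mixed: its large clusters had ORFTOC over FTOC ratios of 1.61, 0.388 and 0.606 for the mitosis list.

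Cells were also counted. Each cell was thinned to 1000 UMIs and called mitosis positive with at least 3 UMIs of the list. Mitosis positive cells made up 81.6% of cluster 6 (77.7 to 85%), 66.5% of cluster 13 (58.7 to 73.6%), 2.84% of DP thymocyte-like cells, 2 of 265 selected thymocyte-like cells and 15.1% of mature SP thymocyte-like cells (12.3 to 18.2%). Over all αβ thymocytes the share was 13.4% in FTOC (12 to 15%) and 24.7% in ORFTOC (22.5 to 27.1%). Unthinned, the shares were 17.6% and 33%. In mature SP thymocyte-like cells the thinned share was 8.97% in FTOC and 18.8% in ORFTOC, with intervals that did not overlap. Of the 89 positive mature cells, 53 lay in the cluster of 73 cells with cycle genes among its leading genes. That cluster held 21 FTOC and 52 ORFTOC cells. The other mature cluster had 36 positive cells of 518. Mitosis positive αβ thymocytes were deep cells, with a median of 8739 UMIs before thinning against 1884 in the other αβ thymocytes; the part of cell size and of doublets in this was not tested.

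**Figure D2:**
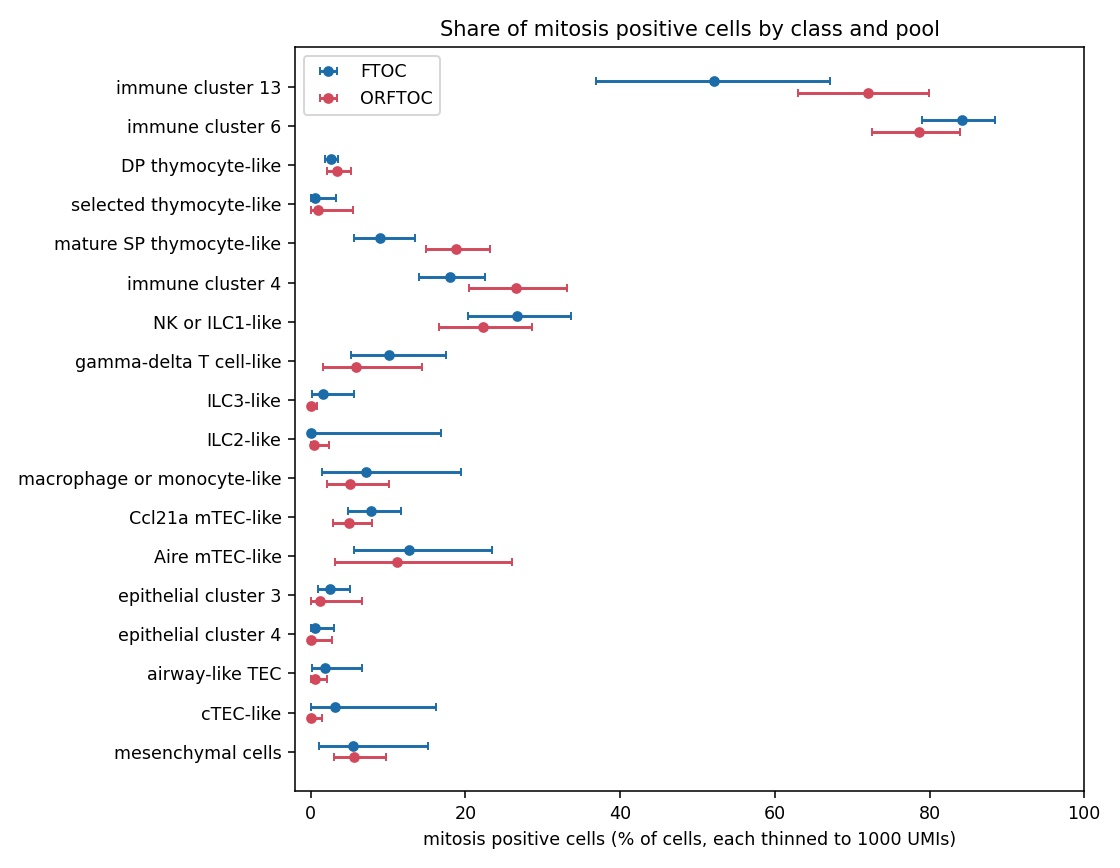
Share of mitosis positive cells in each class, in percent of cells thinned to 1000 UMIs, for FTOC (blue) and ORFTOC (red), with exact 95% binomial intervals. Immune clusters 6 and 13 lie above 50% in both pools, and the pools' intervals part in mature SP thymocyte-like cells, at 8.97% and 18.8%. The mature class includes a cluster with cycle genes among its leading genes.

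The T cell receptor library gave an order of thymocytes that did not use gene expression. Among αβ thymocytes with only a beta chain (TRB) contig, 24.6% were mitosis positive (22.6 to 26.7%, 432 of 1753 cells). With both a beta and an alpha chain (TRA) the share was 10.9% (9.31 to 12.6%, 156 of 1435 cells), and with no chain 13.6% (10.2 to 17.7%, 47 of 345 cells). The S phase shares were 24.1%, 11% and 14.8%. Cells with a beta chain and no alpha chain thus held the largest share of dividing cells of the 3 groups, and this order was the same in each pool. In FTOC the mitosis positive shares were 10.2% with no chain, 18.4% with TRB only and 7.85% with both chains. In ORFTOC they were 19.2%, 35.3% and 15%. Over all αβ thymocytes ORFTOC was higher at each step, and the pools' intervals overlapped only for cells with no chain. Single classes varied. In TRB only cells of cluster 6 the share was 85.5% in FTOC and 81% in ORFTOC. It was 58.1% and 70.1% in cluster 13, 3.14% and 4.36% in DP and 3.57% and 14.7% in mature SP thymocyte-like cells. Clusters 6 and 13 made up 13% of the αβ thymocytes of FTOC and 23.3% of those of ORFTOC. The part of the class shares was not tested. Median depths were 1572 UMIs with no chain, 2040.5 with TRB only and 2436 with both, and a missing chain can be a chain that was not captured.

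**Figure D3:**
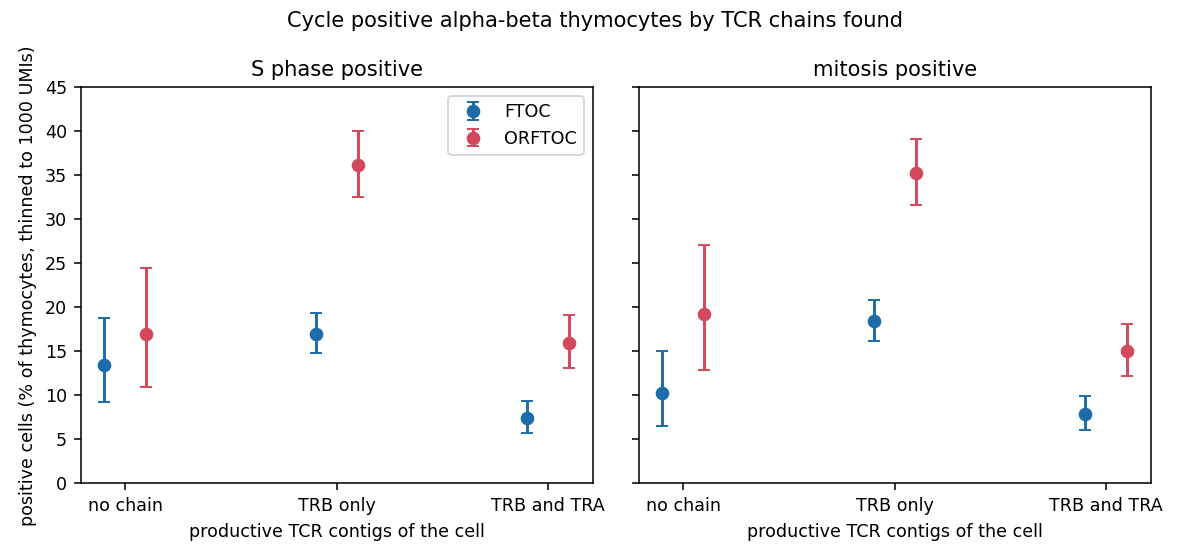
Share of S phase positive (left) and mitosis positive (right) αβ thymocytes, in percent of cells thinned to 1000 UMIs, by the productive receptor contigs found in the cell, for FTOC (blue) and ORFTOC (red), with exact 95% binomial intervals. TRB only cells are highest in both pools, at 18.4% in FTOC and 35.3% in ORFTOC for mitosis.

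Mature SP thymocyte-like cells and double-positive cells differed in the chains of their dividing cells. Among mature cells with both chains 16.5% were mitosis positive (81 of 490), against 1.64% of DP thymocyte-like cells with both chains (11 of 670). The pools stood at 10.8% in FTOC (6.63 to 16.3%) and 19.7% in ORFTOC (15.5 to 24.6%) among mature cells with both chains. These shares include the mature cluster with cycle genes among its leading genes, which held most of the positive mature cells. Immune cluster 4 (533 cells), which led with Ly6c2, Cxcr3, Klrd1 and Eomes and fitted no lineage, had 18% mitosis positive cells in FTOC and 26.5% in ORFTOC, and there cells with both chains had the largest share, 31.2%.

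In the innate lymphoid cells 1 class held most of the division RNA. NK or ILC1-like cells (natural killer cells or group 1 innate lymphoid cells, 382 cells) led with Xcl1, Gzmc, Klra5 and Gzmb. T cell markers went against the name: Cd3e, a part of the T cell receptor complex, stood at 551 CPM, against 648 in mature SP thymocyte-like and 31.1 in ILC3-like cells, and 32.7% of the cells had a TRB contig, which NK cells do not rearrange productively. The class had the mitosis list at 2262 CPM in FTOC (2201 to 2325) and 1970.4 in ORFTOC (1914 to 2028) and held 93.5% of the mitosis UMIs and 80.9% of the S phase UMIs of the lineage. Mitosis positive cells made up 26.6% of them in FTOC (20.4 to 33.6%) and 22.2% in ORFTOC (16.6 to 28.7%), which overlap. ILC3-like cells (577) had the list at 315 CPM in FTOC and 113 in ORFTOC, with 2 mitosis positive cells of 127 and 0 of 450, which allows a share of up to 0.667% by a floor of 3 cells and 0.816% by the exact interval. ILC2-like cells (252) had it at 83.5 and 160.1, or 42.4 and 69 without the richest cell of each pool, with 1 mitosis positive cell of 251. Their S phase RNA stood above their mitosis RNA, at 537 CPM in ILC3-like and 561 in ILC2-like cells. Median depths of ILC3-like and NK or ILC1-like cells were 4722 and 11258 UMIs.

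The innate lineage as a whole differed between the pools more than its dividing class did. Its mitosis list was at 1728 CPM in FTOC and 877 in ORFTOC, a ratio of 0.507 (0.488 to 0.527), while within the NK or ILC1-like class the ratio was 0.871 (0.837 to 0.906). NK or ILC1-like cells were 55.6% of the innate lymphoid cells of FTOC and 22.5% of those of ORFTOC. Among the mitosis positive cells of this class 45.2% had a TRB contig, against 28.7% of the others, and Cd3e stood at 507 and 572 CPM. Without cells with a TRB contig the mitosis list of the whole lineage differed more between the pools (log2 ratio -1.63 against -0.98), and the part of αβ T cells in the class itself was not tested. γδ T cells had the mitosis list at 1777 CPM in FTOC (1685 to 1873) and 1008 in ORFTOC (913 to 1109), with 11 of 108 and 4 of 68 cells mitosis positive. Without the richest cell of each pool these levels were 1508 and 596.

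In the epithelium the division genes were highest in both medullary classes. Aire mTEC-like cells (medullary TECs with the autoimmune regulator Aire, 99 cells) had the mitosis list at 1705 CPM in FTOC (1636 to 1775) and 1081 in ORFTOC (1004 to 1162). Ccl21a mTEC-like cells (592), marked by the chemokine Ccl21a, had it at 661 and 775. These classes made up 31.7% of the epithelial cells and held 78.3% of their mitosis UMIs and 55.3% of their S phase UMIs. Mitosis positive cells made up 12.1% of Aire mTEC-like cells (12 of 99, 6.42 to 20.2%) and 6.25% of Ccl21a mTEC-like cells (37 of 592, 4.44 to 8.51%).

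The remaining epithelial classes had lower mitosis levels. Airway-like TECs (453), with Bpifa1 and Muc5b, had the mitosis list at 185 CPM in FTOC and 59.6 in ORFTOC, with 4 mitosis positive cells. Without the richest cell of each pool these were 107 and 44.8. Epithelial cluster 3 (363), which led with the low-oxygen genes Ndrg1 and Bnip3, had it at 249 and 232, or 189 and 97.5 without the richest cell of each pool. Its S phase list stood at 547 CPM, against 680 in Ccl21a mTEC-like cells. cTEC-like cells (cortical TECs, 289), with Psmb11 and Prss16, had it at 659.6 in FTOC and 25.1 in ORFTOC, but 1 of the 32 FTOC cells held 90.3% of these FTOC UMIs. With the cell richest in the list left out of each pool the levels were 67.2 and 24.2. The class had 1 mitosis positive cell of 289. In epithelial cluster 4 (317) 1 cell likewise held 61.2% of the FTOC mitosis UMIs.

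Over all epithelial cells the mitosis list was at 523 CPM in FTOC (511 to 536) and 299 in ORFTOC (291 to 307), a ratio of 0.571. The classes made up unequal shares of the pools: cTEC-like cells were 3.34% of the epithelial cells of FTOC and 21% of those of ORFTOC, airway-like TECs 11.2% and 28.3%, and epithelial cluster 3 29.4% and 6.7%. Mitosis positive cells numbered 40 of 957 in FTOC (4.18%, 3 to 5.65%) and 23 of 1224 in ORFTOC (1.88%, 1.19 to 2.81%). The 2 medullary classes went separate ways: the ORFTOC over FTOC ratio of the mitosis list was 0.634 in Aire mTEC-like cells and 1.17 in Ccl21a mTEC-like cells. Aire mTEC-like cells had more S phase RNA in ORFTOC, at 846 CPM in FTOC and 1281 in ORFTOC, and less mitosis RNA. All 20 mitosis members were lower in that class in ORFTOC and 17 of the 18 S phase members counted were higher. Of all 9019 genes counted there, 4742 were higher and 4277 lower. There were 63 Aire mTEC-like cells in FTOC and 36 in ORFTOC, and 1 ORFTOC cell held 42.1% of the ORFTOC mitosis UMIs. Without the richest cell of each pool the mitosis levels were 1471 and 675. Mitosis positive epithelial cells carried the epithelial marker Epcam at 1312 CPM and Ptprc at 18.1, against 1156 and 11.8 in the other epithelial cells.

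In mesenchymal cells the division RNA lay in few cells. They numbered 55 in FTOC and 212 in ORFTOC, the latter with MEFs among the inputs. The mitosis list was at 462 CPM in FTOC (421 to 507) and 636 in ORFTOC (613 to 659), and the S phase list at 496 (453 to 543) and 501 (480.4 to 521). Mitosis positive cells were 3 of 55 and 12 of 212, or 5.45% and 5.66%. A single cell held 50.6% of the FTOC mitosis UMIs and another 19.8% of those of ORFTOC. Without them the levels were 235 and 515.

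Member by member, nearly all log2 ratios were above 0 in αβ thymocytes and below 0 in innate lymphoid and epithelial cells, while in mesenchymal cells the S phase list was split (9 above 0 and 9 below) and the mitosis list mostly above 0 (14 and 5). A gene was counted with at least 20 UMIs over both pools, and the log2 ratio of ORFTOC over FTOC was taken on CPM. In αβ thymocytes the median was 0.46 for the S phase list (19 of 20 above 0) and 0.35 for the mitosis list (20 of 20), beside -0.19 for all 11084 genes counted, so that members were higher relative to the other genes by more than their own ratios. No member was past 2-fold in either direction, against 1.22% of all genes past 2-fold higher and 5.52% past 2-fold lower. The highest log2 ratio was that of Ung, a uracil-DNA glycosylase, at 14.5 CPM in FTOC and 28.3 in ORFTOC (0.97), then that of the helicase component Gins2 (31.1 and 53.9, 0.80). Plk1, a mitotic kinase, led the mitosis list (79.2 and 124, 0.65). Ccne2, a cyclin E, was the sole member below 0 (12.7 and 10.7, -0.24). Summed over its members, the S phase list had a log2 ratio of 0.47 and the mitosis list one of 0.28, and without clusters 6 and 13 these were 0.83 and 1.02. DP thymocyte-like cells were 69.3% of the αβ thymocytes of FTOC and 44.1% of those of ORFTOC. Mature SP thymocyte-like cells were 9.96% and 25.7%. Within cluster 6 the mitosis median was -0.22 (18 of 20 below 0), beside -0.07 for all genes. In cluster 13, DP and mature SP thymocyte-like cells it was 0.33, 0.53 and 0.68. The S phase medians were 0.18 in cluster 6, then -0.02, 0.20 and 0.32.

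In innate lymphoid cells all 40 members were lower in ORFTOC. The median log2 ratio was -0.69 for the S phase list and -0.95 for the mitosis list, beside 0.05 for all 10650 genes counted. Past 2-fold lower were 4 of 20 S phase members and 9 of 20 mitosis members, against 2.57% of all genes. None was past 2-fold higher, against 5.67% of all genes. Nusap1, a spindle protein, was at 64.7 CPM in FTOC and 23.2 in ORFTOC (-1.48), Cdc6, which loads the helicase, at 19.3 and 7.55 (-1.35), and Aurkb, the kinase of the chromosomal passenger complex, at 52.8 and 21.3 (-1.31). The smallest differences were those of Slbp, which binds histone mRNA (176 and 137, -0.36), and Gins2 (29.3 and 22.7, -0.37). Since the dividing class made up unequal shares of this lineage in the pools, the NK or ILC1-like class alone is given beside it. There the medians were -0.06 and -0.22, beside -0.05 for all 9098 genes counted. In each list 17 of 20 members were below 0, against 5115 of all genes counted. The S phase median thus lay near that of all genes.

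In epithelial cells the median was -0.39 for the S phase list (19 of 20 below 0) and -0.79 for the mitosis list (20 of 20 below 0), beside -0.01 for all 14814 genes counted. Past 2-fold lower were 1 S phase member and 5 mitosis members, against 6.35% of all genes, and none was past 2-fold higher, against 5.31%. Cdt1, the other loader of the helicase, had 13.7 CPM in FTOC and 6.39 in ORFTOC (-1.10), Bub1, a spindle checkpoint kinase, 5.22 and 2.21 (-1.24), and Cdc20, an activator of the anaphase promoting complex, 32.5 and 14.6 (-1.15). Cdc45, which activates the helicase, was the sole member above 0 (4.33 and 4.88, 0.17). Without the Ccl21a mTEC-like cells the summed mitosis list had a log2 ratio of -1.90, against -0.81 with them. In mesenchymal cells the medians were -0.01 and 0.36, beside -0.09 for all 11046 genes counted. Past 2-fold higher were 1 of the 18 S phase members counted, Mcm2, and 3 of the 19 mitosis members counted, Ube2c, Cdc20 and Cenpa, against 3.39% of all genes, and none was past 2-fold lower, against 4.34%.

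**Figure D4:**
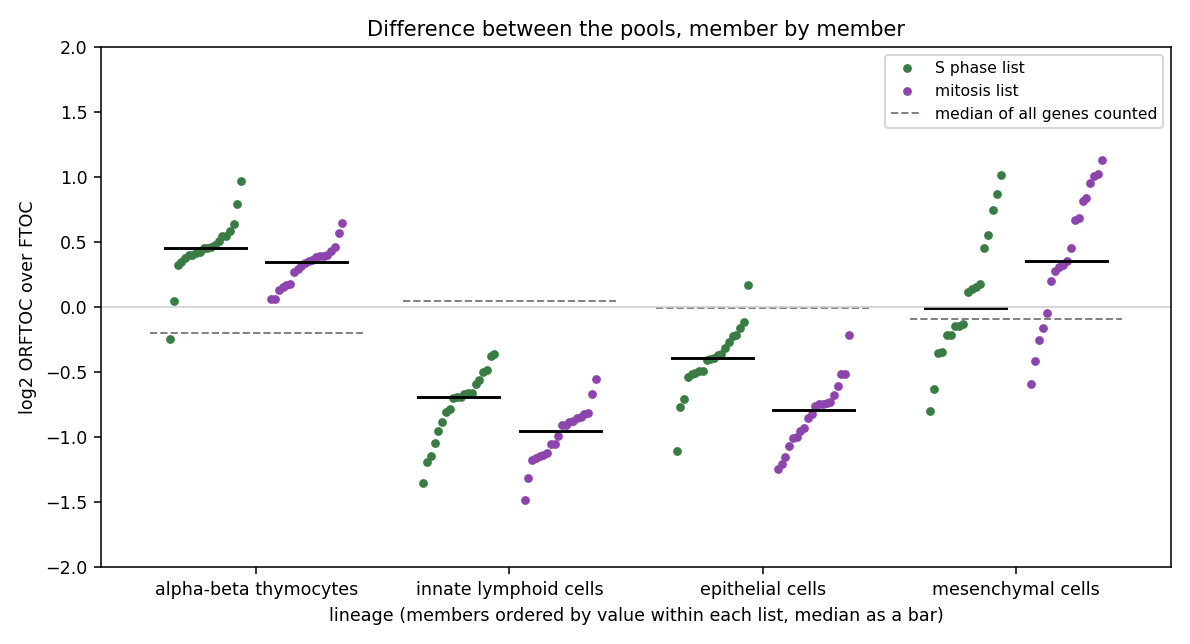
Log2 ratio of ORFTOC over FTOC for each member with at least 20 UMIs in a lineage, S phase in green and mitosis in purple, ordered by value, with the list median as a bar and the median of all genes counted as a dashed line. Members other than Ccne2 lie above the dashed line in αβ thymocytes and below it in innate lymphoid cells, where the medians are -0.69 and -0.95.

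The members of a list followed each other across the clusters, some more closely than others. A UMI marks 1 captured 5′ end, so levels of different genes were compared without division by length. In αβ thymocytes the most abundant members were Ube2c at 579 CPM, Pclaf, a partner of PCNA, at 552, Top2a at 550, Birc5, the passenger complex subunit survivin, at 372 and Mki67, the proliferation marker that coats chromosomes, at 331. Lowest were Ccne2 at 11.6, Ung at 22.1 and Ccne1 at 25.3. Over 32 values, 16 clusters in each of 2 pools, each member was correlated with the rest of its list on the log2(CPM + 10) scale. The Pearson r ran from 0.71 to 0.97 in the S phase list and from 0.84 to 0.98 in the mitosis list. These points share libraries, depth and cells. Ube2c (0.98), Birc5 (0.98) and Mcm6 (0.97) lay closest to their lists, and Ung (0.71), the helicase subunit Mcm7 (0.76) and Gins2 (0.77) farthest from theirs.

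**Figure D5:**
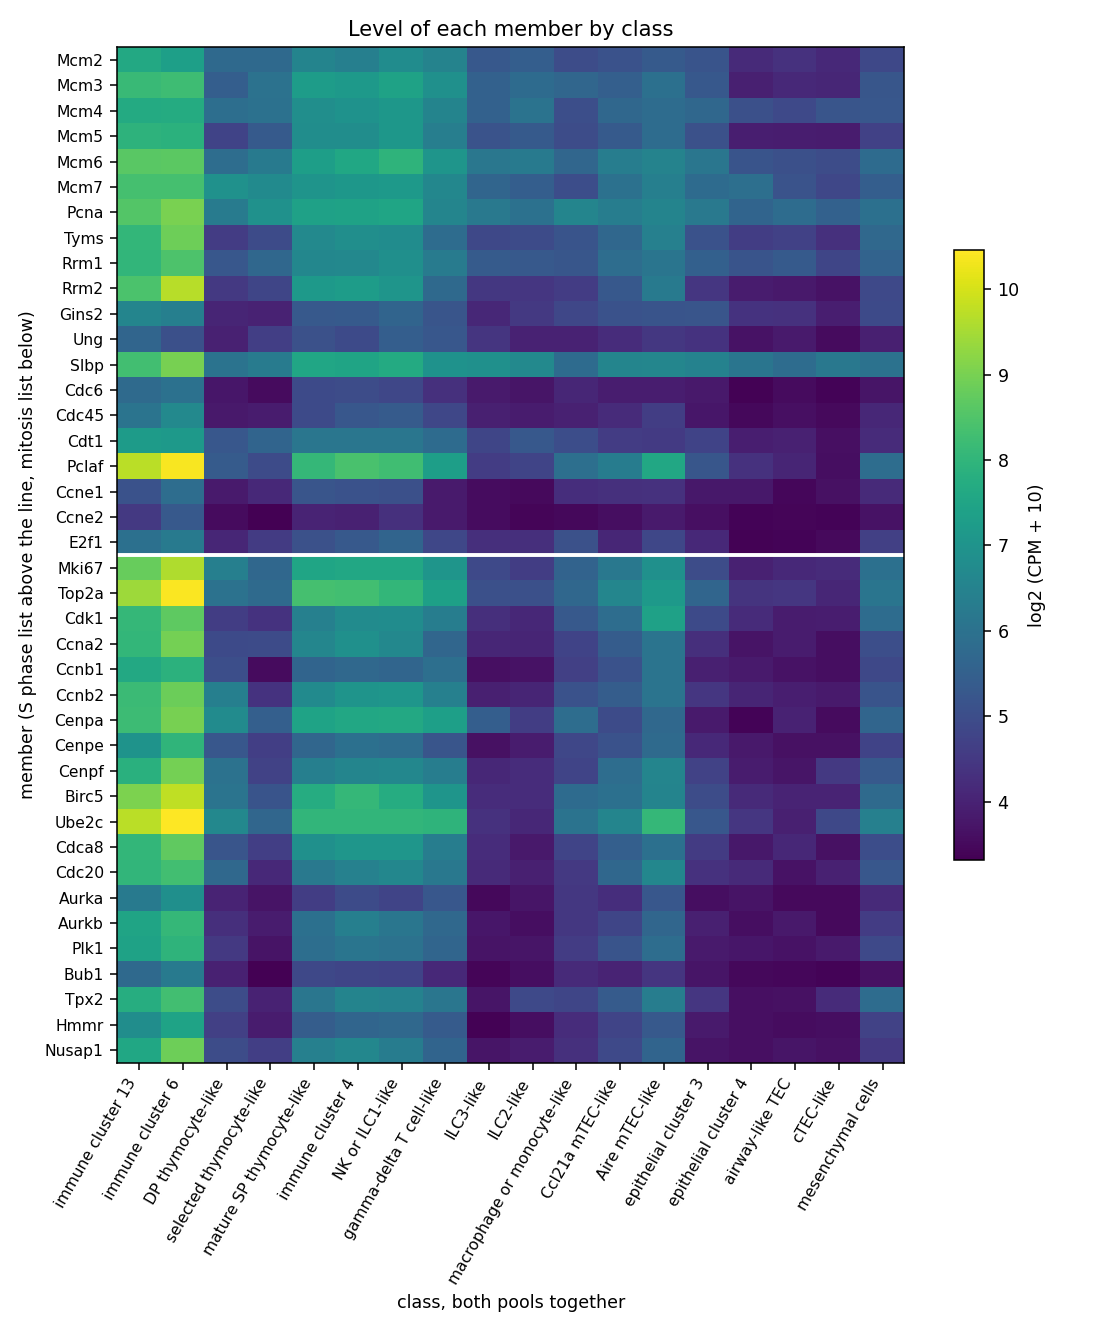
Level of each member in each class, both pools together, as log2(CPM + 10), with the S phase list above the white line and the mitosis list below. Immune clusters 6 and 13 are brightest throughout, while Mcm7 stays visible in DP thymocyte-like cells, at 112 CPM.

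Of the helicase subunits, Mcm7 stood at 314 CPM in cluster 6 and 112 in DP thymocyte-like cells, whereas Mcm5 stood at 226 and 16.9. Mcm2 and Mcm4 also kept 43.7 and 50.1 in the DP class. The enzymes of nucleotide supply were further apart between these classes: Rrm2, the regulated subunit of ribonucleotide reductase, stood at 819 and 12.7, and Tyms, thymidylate synthase, at 458 and 13.9. Rrm1, the partner of Rrm2, stood at 340.3 and 28.3. Among loading factors Cdt1 stood at 133 and 28.3, and Cdc6 at 53.2 and 3.42. In ILC3-like and ILC2-like cells Slbp was the most abundant S phase member, at 110 and 92.8, and Pclaf was at 13.9 and 17.4.

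Mitosis members differed unevenly between cluster 6 and DP thymocyte-like cells. The cyclin Ccnb2 stood at 452 and 73.8 CPM, the centromere histone Cenpa at 497 and 99, and the kinetochore protein Cenpf at 485 and 54.5. Cdk1, the mitotic kinase, stood at 403 and 14.4 and Aurkb at 257 and 9.53. The passenger subunits Birc5 and Cdca8 stood at 860 and 406 in cluster 6. In Aire mTEC-like cells Ube2c (259) and Cdk1 (158) were the most abundant mitosis members, above Top2a (133) and Mki67 (108). The spindle proteins Tpx2, Hmmr and Aurka stood there at 71.7, 29.5 and 28.1. In NK or ILC1-like cells the order was Top2a (252), Ube2c (247) and Birc5 (203), and in mature SP thymocyte-like cells Top2a (315), Ube2c (247) and Birc5 (202).

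S phase members were also compared between cells that were and were not mitosis positive, a split that does not use them. In αβ thymocytes Pclaf was at 1036 CPM in mitosis positive cells and 213 in the others, a ratio of 4.86 (4.62 to 5.11). Rrm2 was at 556 and 118 (4.7) and Tyms at 343 and 76.7 (4.47). Early S phase members differed less, with Mcm3 at 219 and 139.6 (1.57) and Cdt1 at 107 and 66 (1.63). Ung was lower in mitosis positive cells, at 12.7 against 28.8 (0.439, 0.341 to 0.561). Members of 1 list thus split into those that ran with the mitosis genes and those that did not. Within cluster 6 Pclaf (1329.9 and 1317) and Rrm2 (819.6 and 819) hardly differed, while Mcm3 (232 and 544) and Ung (8.87 and 88.8) were lower in mitosis positive cells.

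The reverse split gave a similar division among mitosis members. In S phase positive αβ thymocytes Aurkb was at 198 CPM against 44.9 in the others (4.41) and Top2a at 975 against 237 (4.11). Cenpa, Ube2c and Ccnb2 had ratios of 1.32, 1.73 and 1.69. In cluster 6 these last 3 were lower in S phase positive cells, with Ube2c at 1004 against 2957 (0.339, 0.322 to 0.358). In NK or ILC1-like cells Aurkb had a ratio of 2.83, Top2a 2.48 and Cenpa 0.482 (0.407 to 0.57). In epithelial cells the ratios were 10.7 for Aurkb, 13.3 for Top2a and 0.659 for Cenpa (0.299 to 1.27), the last from 9 UMIs in the S phase positive cells.

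Further lists of cell cycle genes were read in the same way. In αβ thymocytes 26 of 26 genes of replication licensing and forks and 27 of 28 genes of the kinetochore, spindle and cytokinesis had a log2 ratio above 0, with medians of 0.43 and 0.25 and none past 2-fold, against 1.22% of all genes past 2-fold higher and 5.52% past 2-fold lower. Within cluster 6 these medians were 0.16 and -0.19, with 24 of the 28 kinetochore, spindle and cytokinesis genes below 0. In innate lymphoid cells 0 of 26 and 1 of 28 were above 0, with medians of -0.58 and -0.87, and 2 and 8 genes were past 2-fold lower, against 2.57% of all genes. In epithelial cells 1 of the 25 licensing and fork genes counted and 1 of 28 were above 0 (medians -0.38 and -0.63). The 8 genes of nucleotide supply had medians of 0.59, -0.46 and -0.16 in the 3 lineages, and the 15 genes of the E2F and RB family 0.13, -0.29 and -0.02.

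Regulators of the G1 phase had other patterns. The D-type cyclins, which start the cycle, differed by class within the αβ thymocytes and by lineage. Ccnd3 was at 2339.7 CPM in DP thymocyte-like cells, 2083 in cluster 6 and 239.8 in mature SP thymocyte-like cells. Ccnd2 was at 13.2, 7.22 and 299.5 in these classes, at 215 in innate lymphoid cells and at 206 in epithelial cells. Ccnd1 was at 51 in epithelial and 76.8 in mesenchymal cells and at or below 1 in αβ thymocytes and innate lymphoid cells. Cdk4, the kinase of these cyclins, was at 538 in cluster 13, and Myc, which drives growth, at 214 there and 12.7 in DP thymocyte-like cells.

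CDK inhibitors and anti-proliferative genes also had their own patterns. Cdkn2c and Cdkn2d, which block CDK4 and CDK6, were highest in cluster 6, at 110 and 373 CPM, although that cluster held the most division RNA. Cdkn1b was at 238 in DP thymocyte-like cells, Cdkn1a at 149 in ILC2-like cells and Cdkn1c at 345 in Aire mTEC-like cells, where Cdkn2a and Cdkn2b stood at 126 and 94.9. Btg2 was at 2747 in ILC2-like and 755 in ILC3-like cells, and Btg1 at 1155 in DP thymocyte-like cells. The summed inhibitor list includes the abundant Btg1 and Btg2. It was at 1676 CPM in FTOC and 1015 in ORFTOC αβ thymocytes and at 995 and 1866 in innate lymphoid cells. In direction this was the reverse of the S phase and mitosis lists in each of these lineages. The median log2 ratio over its genes was -0.46 in αβ thymocytes (3 above 0 and 5 below) and 0.72 in innate lymphoid cells (5 and 2). DP thymocyte-like cells were 69.3% and 44.1% of these thymocytes, and ILC2-like cells 6.04% and 26.4% of these innate cells. The median log2 ratio was -0.07 in DP and -0.003 in mature SP thymocyte-like cells. It was -0.26 in cluster 6, 0.32 in cluster 13, 0.10 in NK or ILC1-like and 0.36 in ILC3-like cells. The part of the class shares was not tested.

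Outside these lists, the 10 genes whose level followed the mitosis list most closely over the same 32 values were Cks2 (Pearson r 0.95), a CDK subunit, Tacc3 (0.94), Knl1 (0.94), Hmgb2 (0.93), Kif22 (0.93), Aspm (0.91), Lockd (0.91), Dlgap5 (0.91), H2afz (0.90) and Kifc1 (0.90). Hmgb2, a chromatin protein, had the widest span of levels among them, from 57.6 to 5852 CPM. It was at 554 in free RNA.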

How the data were processed

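The gene expression library, a hashtag library and a T cell receptor library came from 1 droplet lane (Chromium Single Cell 5′ kit). The authors counted reads with Cell Ranger 6.1.2 on mm10 and deposited raw UMI counts per gene and barcode, with hashtag counts in the same matrix, and, in a separate table, receptor contigs. The submitters' notes also name Seurat 4.2.0. From the 705161 deposited barcodes, those with at least 600 genes and 0.4 to 10% mitochondrial UMIs were kept (10245). Pools were called with HTODemux (quantile 0.99, HTO_1 FTOC, HTO_2 ORFTOC), and 590 doublets between pools and 672 unassigned barcodes were left out. A further 591 cells, whose expression neighbours included many of the between-pool doublets (the idea behind recoverDoublets, coded anew), were removed as doublets within pools.

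Counts were normalised with SCTransform (Seurat 5.3.0, sctransform 0.4.2, R 4.3.3), regressing cell cycle scores, with 18 principal components and Louvain resolutions of 0.4 (all and epithelial cells) and 1 (immune cells). Left out of clustering were 268 cell cycle genes and genes with Pearson r of at least 0.25 with either member list, the latter added after the clusters were seen. Clusters were scored on written marker lists by the mean log2 fold of the markers over the other clusters of the compartment. A name needed at least 3 markers detected, a score of at least 0.25 and a margin of 0.25. The 10 leading genes also had to hold at least as many markers of that class as of any other. Shallow clusters with no such marker were left unnamed. These limits were set after leading genes were seen. Levels are summed UMIs per 1000000 UMIs (CPM) with exact Poisson intervals, ratios have exact conditional binomial intervals with counts under 3 set to 3, and shares have exact Clopper-Pearson intervals. Cells under 1000 UMIs were left out of shares. Receptor contigs were all productive, and 3911 of the 8392 cells had one. The code was tested on simulated counts (Python 3.11.15, numpy 2.4.6, scipy 1.17.1, pandas 2.3.3).

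The members and the further lists were chosen with earlier results of these data known. All members could be named, with all G1 genes and CDK inhibitors and, outside the lists, the 10 genes most correlated with the mitosis list over clusters of at least 50 cells in each pool. Alternatives changed the clustering, pool calls, filters, scaling, weight of cells and free RNA.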

Additional observations from a re-analysis of the deposited data

How the results depend on the processing

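The log2 ratios of ORFTOC over FTOC for the summed lists were 0.47 (S phase) and 0.28 (mitosis) in αβ thymocytes, -0.70 and -0.98 in innate lymphoid cells, -0.36 and -0.81 in epithelial cells and 0.01 and 0.46 in mesenchymal cells. Under the alternatives run, the mitosis ratio kept its sign in all 4 lineages and the S phase ratio in all but mesenchymal cells, where it ran from -0.09 to 0.43. Values that moved beyond counting error follow, as S phase then mitosis where both did. In αβ thymocytes they were 0.43 for S phase with cell cycle genes kept in clustering, 0.49 for S phase with log-normalised counts, 0.36 and 0.25 with doublets within pools kept, 0.28 and 0.12 with at least 1000 genes a cell, 0.66 and 0.47 with median of ratios scaling, and 0.70 and 0.57 with each cell weighted equally. In innate lymphoid cells they were -0.82 and -1.07 with log-normalised counts, -0.84 and -1.36 with equal weights, -0.64 for S phase with the hashtag ratio rule and -0.64 again without the most abundant member, and for mitosis -1.08 with cycle genes kept, -1.06 with 30 principal components, -0.75 at double resolution, -0.84 with doublets kept and -1.05 with at least 1000 genes. In epithelial cells they were -0.28 and -0.33 with the hashtag ratio rule, -0.29 and -0.66 with doublets kept, and for mitosis -0.95 with free RNA subtracted and -0.99 without cells with a marker of another compartment. In mesenchymal cells they were 0.22 and 0.20 with equal weights and 0.11 for mitosis with the hashtag ratio rule. Chosen after seeing the data were αβ thymocytes without clusters 6 and 13 (0.83 and 1.02), innate lymphoid cells without NK or ILC1-like cells (mitosis -1.05) and without cells with a TRB contig (-0.81 and -1.63), epithelial cells without the latter (mitosis -0.87) and without Ccl21a mTEC-like cells (-0.64 and -1.90), and mesenchymal cells without the richest cell of each pool (0.43 and 1.13). Apart from the settings that remove cells, UMIs or a member, the cause was not tested. The summed G1 cyclins and kinases in αβ thymocytes reversed, to 0.016 from -0.18, with median of ratios scaling. The median log2 ratio over the genes of that list was 0.25, with 8 of the 9 counted above 0. Mitosis positive shares moved with thinning and threshold, in αβ thymocytes from 10.4 to 32.3% in FTOC and 16.5 to 43% in ORFTOC. With 1 sample a pool, no replicate could be left out. No paired analysis was possible because each pool is 1 sample and no test was made. Few cells were positive among the mesenchymal cells, the selected thymocytes and the ILC2-like and ILC3-like cells, and single cells held 15.7% (ILC3-like) or more of the mitosis UMIs there.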

Other observations

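The myeloid cells, which clear dying thymocytes, held division RNA in a small number of cells. Macrophage or monocyte-like cells (181) had the mitosis list at 425 CPM in FTOC (377 to 478) and 478 in ORFTOC (452 to 505), and the S phase list at 429.9 and 535. Without the richest cell of each pool the mitosis levels were 160.5 and 418, so that 1 FTOC cell carried most of the FTOC level. Mitosis positive cells numbered 10 of 210 myeloid cells (4.76%, 2.31 to 8.58%), 3 of 46 in FTOC and 7 of 164 in ORFTOC. Dendritic cell-like cells (29) had 14 mitosis UMIs in all, a level of 54.7 CPM (29.9 to 91.8), which is near what 5% free RNA would give.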
